A study of Homo sapiens with 8 samples.

Results

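The nuclear-encoded subunits of the respiratory chain were analysed by ribosome profiling, an assay that reads out the mRNA fragments a bound ribosome shields from nuclease. Genes were chosen by name, as NDUFA, NDUFB, NDUFC, NDUFS and NDUFV genes, SDHA to SDHD, UQCR genes, COX4 to COX8 genes and ATP5 genes. This gave 66 of the 11940 genes listed in either footprint table, of which 29 are named for complex I, 4 for complex II, 9 for complex III, 9 for complex IV and 15 for complex V. NDUFA4 carries a complex I name but is found in complex IV, and it was kept under its name. NDUFC2-KCTD14 and ATP5MF-PTCD1 are readthrough genes that share reads with a neighbour, UQCRHL and ATP5MGL are retrocopies of UQCRH and ATP5MG, and ATP5IF1 encodes the inhibitor of ATP synthase. The subunit genes NDUFS3, NDUFS7, COX4I1 and ATP5F1C were not found under these names and are not analysed here. Other subunit genes, such as COX6C, were not found either, so the counts do not cover every subunit.

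The cells were BJ, an established line of human skin fibroblasts, in a BJ-HRAS background that all groups share. HRAS is a GTPase whose oncogenic form can push fibroblasts into senescence, and 4-hydroxytamoxifen (4-OHT) is widely used to activate proteins fused to a tamoxifen-responsive receptor domain. The labels do not describe the HRAS construct and name no vehicle for the untreated cells. The 4 groups were SNORA13 knockout clones 66 and 69 after 7 days of 100 nM 4-OHT, the same knockout clones without 4-OHT, wild-type (WT) clones 15 and 54 after the same treatment, and these WT clones without it. SNORA13 is a small nucleolar RNA. Each group held 2 libraries, 1 from each clone, so a genotype cannot be told apart from the clones that carry it.

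The respiratory chain passes electrons from NADH (complex I) and succinate (complex II) through complex III and cytochrome c to oxygen at complex IV, and ATP synthase (complex V) uses the proton gradient built on the way. Most subunits are encoded in the nucleus, translated in the cytosol and imported, while a few of the catalytic ones are encoded by the mitochondrial genome and translated inside the organelle. Transcription factors of the NRF1, GABP (an ETS factor), YY1 and ERR families are known to bind promoters of many of these nuclear genes.

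The promoter sequences below, from the RefSeq annotation of GRCh38.p14, are shown because these genes represent the complexes and are taken up again in the results. NDUFB4, SDHB, UQCRQ, COX5B and ATP5MD rose with 4-OHT in both genotypes, whereas UQCR11 was called in neither. Each line holds the 250 bases before the annotated start, read 5′ to 3′ on the gene's strand. Capitals mark matches on either strand to the NRF1 half-site TGCGCA, the ETS motif CCGGAAG, the YY1 motif AAGATGG or the ERR motif AAGGTCA. NDUFB4 lies at chr3:120596086-120596335 on the plus strand, SDHB at chr1:17054033-17054282 on the minus strand and UQCRQ at chr5:132866392-132866641 on the plus strand. COX5B lies at chr2:97645812-97646061 on the plus strand, ATP5MD at chr10:103396476-103396725 on the minus strand and UQCR11 at chr19:1605463-1605712 on the minus strand.
NDUFB4: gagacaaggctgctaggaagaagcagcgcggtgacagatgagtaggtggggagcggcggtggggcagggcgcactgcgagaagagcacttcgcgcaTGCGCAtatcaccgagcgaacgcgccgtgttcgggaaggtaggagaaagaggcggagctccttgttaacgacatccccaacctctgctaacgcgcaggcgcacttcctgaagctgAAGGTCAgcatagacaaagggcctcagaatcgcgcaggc
SDHB: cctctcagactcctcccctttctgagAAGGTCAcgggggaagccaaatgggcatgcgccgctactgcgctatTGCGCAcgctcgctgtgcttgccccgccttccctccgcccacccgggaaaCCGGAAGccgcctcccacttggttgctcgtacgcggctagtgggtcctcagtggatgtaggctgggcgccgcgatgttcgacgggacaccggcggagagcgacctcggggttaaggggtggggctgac
UQCRQ: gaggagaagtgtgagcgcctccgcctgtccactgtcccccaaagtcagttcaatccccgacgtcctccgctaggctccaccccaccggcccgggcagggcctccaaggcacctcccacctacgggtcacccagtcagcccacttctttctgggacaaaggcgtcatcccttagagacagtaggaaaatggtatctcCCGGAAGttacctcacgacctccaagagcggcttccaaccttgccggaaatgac
COX5B: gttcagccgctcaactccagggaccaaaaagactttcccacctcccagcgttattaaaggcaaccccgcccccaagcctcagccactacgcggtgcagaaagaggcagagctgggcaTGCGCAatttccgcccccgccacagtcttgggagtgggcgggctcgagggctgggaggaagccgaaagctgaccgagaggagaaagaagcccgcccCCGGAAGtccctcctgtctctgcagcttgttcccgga
ATP5MD: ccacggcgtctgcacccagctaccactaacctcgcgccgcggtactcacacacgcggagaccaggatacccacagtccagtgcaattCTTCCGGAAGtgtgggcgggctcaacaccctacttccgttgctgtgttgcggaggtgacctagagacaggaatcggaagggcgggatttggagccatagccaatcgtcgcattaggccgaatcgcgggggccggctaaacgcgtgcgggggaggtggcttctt
UQCR11: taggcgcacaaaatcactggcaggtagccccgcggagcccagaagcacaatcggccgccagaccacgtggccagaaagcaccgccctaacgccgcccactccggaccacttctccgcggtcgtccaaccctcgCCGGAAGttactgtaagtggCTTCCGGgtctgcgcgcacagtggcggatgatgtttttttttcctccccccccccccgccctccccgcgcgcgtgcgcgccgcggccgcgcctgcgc

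In these lines NDUFB4 held an NRF1 and an ERR match, SDHB held an ERR, an NRF1 and an ETS match, and UQCRQ held an ETS match. COX5B held an NRF1 and an ETS match, and ATP5MD held a pair of overlapping ETS matches, 1 on each strand. UQCR11, called in neither genotype, held 2 ETS matches. Matches that run past the end of a line are not marked there. These were an NRF1 match of UQCR11 from position -5 and ETS matches of COX5B from -5 and ATP5MD from -3. Over the whole 300-base RefSeq window, which adds 50 bases after the start, 52 of the 66 members had at least 1 window, and 60 windows were searched. An NRF1 match was in 26.7% of the member windows, against 11.6% of 14037 windows of all genes in the footprint tables and 8.24% of all 35116 RefSeq windows. For the ETS motif these shares were 31.7%, 15.8% and 10.3%, for YY1 21.7%, 6.55% and 5.84%, and for ERR 18.3%, 2.71% and 3.92%. In the part before the start alone the YY1 motif was in 8.33% of the member windows, against 3.29% of the windows of all genes in the footprint tables and 3.70% of all RefSeq windows, and the ERR motif in 11.7%, against 2.42% and 3.44%. The SP1 box GGGCGG was in 56.7% of the member windows, against 64.6% and 45.0%. At least 1 of the NRF1, ETS, YY1 and ERR motifs was in a window of 19 of the 30 members with a window that rose in both genotypes (63.3%), and of 14 of the 20 other tested members with a window (70.0%). A match to these letters describes the sequence and does not show binding, and matches of different motifs may overlap.

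**Figure D1:**
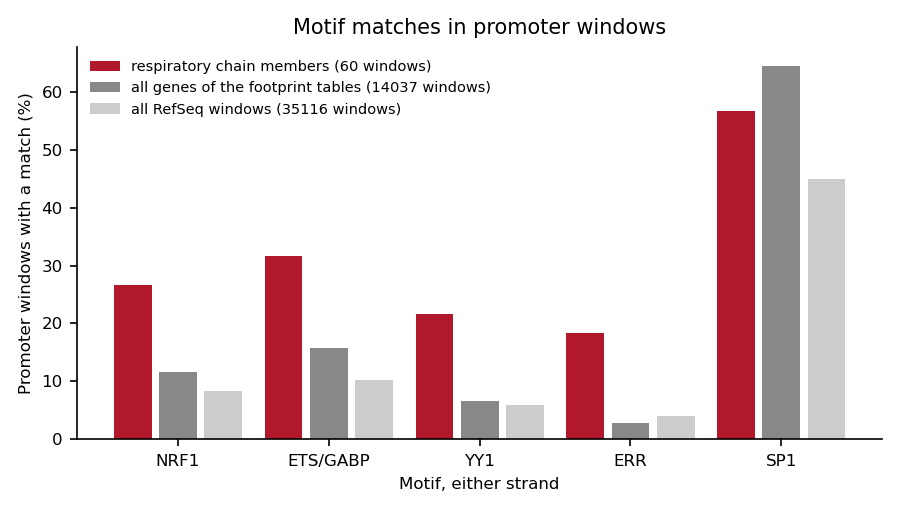
Share of promoter windows of 300 bases (y axis, percent) with a match on either strand to each motif (x axis), for respiratory chain members, all genes of the footprint tables and all RefSeq windows. The member bars stand highest for NRF1 (26.7%), ETS/GABP (31.7%), YY1 (21.7%) and ERR (18.3%), and lie between the other bars for SP1 (56.7%).

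Reads of a member can be shared with its processed pseudogenes or near-identical copies, and how such reads were counted is not given in the sources used here, so single values carry that uncertainty. The values are footprint RPKM, reads per kilobase of genomic span scaled to library size, and each is given in the order of the clone numbers. Since the span includes introns, RPKM values were compared between libraries for a gene and not between genes. The estimated depth was 188952 and 979239 reads in knockout clones with 4-OHT, 899362 and 1710032 in knockout clones without it, 1682492 and 589897 in WT clones with 4-OHT, and 1323994 and 786117 in WT clones without it. Since RNA abundance is not analysed here, mRNA level and translation both enter each footprint value and were not separated. Less RNA per cell and fewer cells of a kind cannot be told apart in these bulk libraries, and 4-OHT cannot be told apart from the table in which its libraries were deposited. Of 10 fibroblast markers, all 10 of which were tested, 7 were called lower and 1 higher with 4-OHT in knockout clones, and 8 lower and 1 higher in WT clones. The list, which includes the collagens COL1A1 and COL1A2, took between 2.44% and 2.92% of reads with 4-OHT and between 6.33% and 8.03% without it. Of 6 markers each, 3 of leukocytes, 3 of endothelial cells, 1 of melanocytes (MITF) and 1 of keratinocytes (KRT10) were listed, and each set took at most 0.00974% of any library. KRT10 was called higher in both genotypes, at 0.000997% to 0.00453% of reads with 4-OHT against at most 0.000373% without it. KRT10 had too few reads without 4-OHT to be tested there. It entered the test only through the libraries with 4-OHT, where it was high. The part of these markers in the results below was not tested.

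With 4-OHT, footprints on the respiratory chain genes rose across all 5 complexes in knockout and in WT clones. Shares of reads, here and for the markers above, are of the estimated reads on listed genes with a known span. Listed genes numbered 11079 with 4-OHT and 11546 without it, so the totals cover different genes. The members without the readthrough genes were 64 in all. They took 1.55% and 1.49% of these reads in knockout clones with 4-OHT, against 0.668% and 0.650% without it. In WT clones their share was 1.56% and 1.52% with 4-OHT, against 0.643% and 0.662% without it. No library with 4-OHT overlapped a library without it, and the share with 4-OHT over that without was 2.31 and 2.29 in the knockout clones and 2.42 and 2.29 in the WT clones. By complex this ratio lay between 1.87 and 2.19 for complex I, between 2.09 and 4.02 for complex II, between 2.62 and 2.75 for complex III, between 2.90 and 3.59 for complex IV and between 2.06 and 2.30 for complex V. The value of 4.02 for complex II came from knockout clone 66, whose library with 4-OHT was the shallowest.

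**Figure D2:**
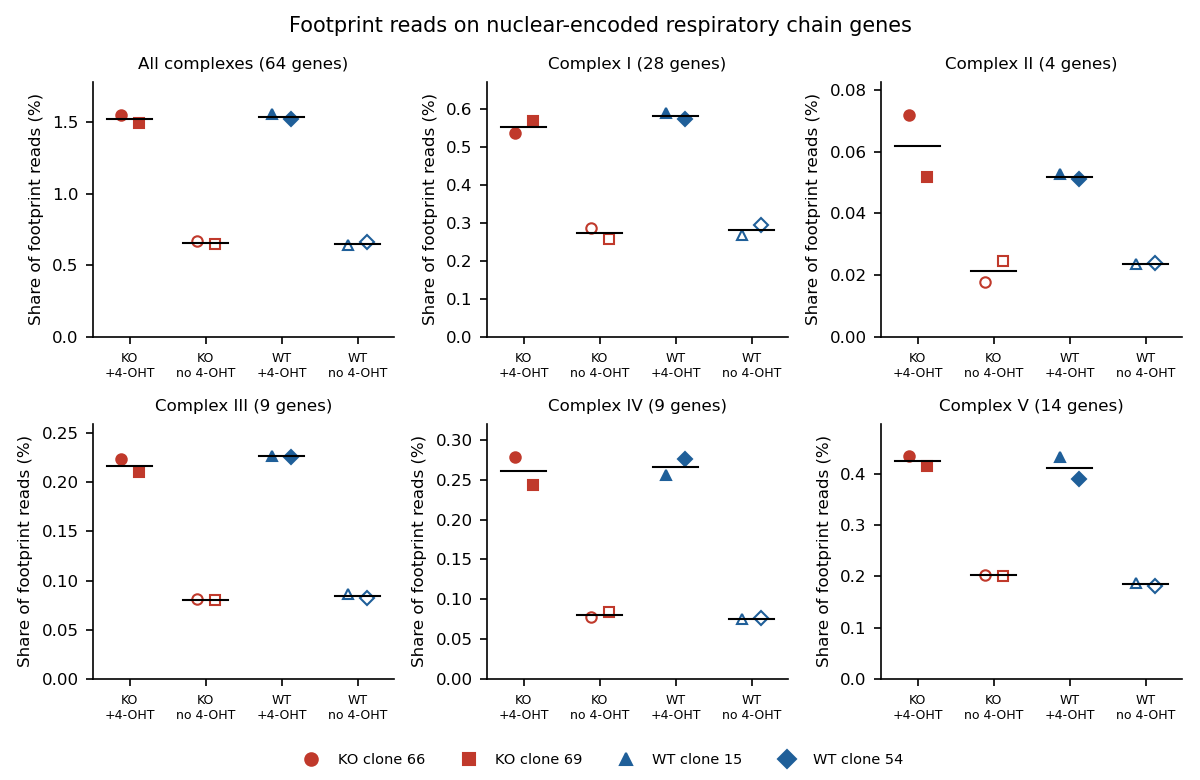
Share of estimated footprint reads of listed genes (y axis, percent) on members of each complex without readthrough genes, by group (x axis). Each point is 1 library, its shape the clone, filled with 4-OHT and open without, and the bar is the group mean. In every panel the points with 4-OHT lie above those without it in the same genotype, for example at 1.55% and 1.49% against 0.668% and 0.650% over all complexes in knockout clones.

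A gene was tested with at least 10 estimated reads in at least 2 libraries, which 61 of the 66 members passed, 28 of complex I, 3 of complex II, 8 of complex III, 8 of complex IV and 14 of complex V. Of these 60 passed in the libraries without 4-OHT alone, and ATP5MG passed only through those with it. In knockout clones 41 of the 61 tested members were higher with 4-OHT and 0 lower, at an adjusted p under 0.05 (limma-trend, Benjamini-Hochberg over all tested genes). Of all 8692 tested genes 17.3% were called higher and 10.7% lower in that comparison. In WT clones 41 of 61 members were also higher and 0 lower, against 13.8% and 8.17% of all tested genes. The median log2 fold change of the members was 0.96 in knockout clones, against 0.05 over all tested genes, and 0.96 in WT clones, against 0.06. Fold changes are of RPKM + 1 and understate the change of low values. Without WT clone 15 or 54 with 4-OHT, 23 members were called in WT clones in each case, and without clone 15 or 54 without 4-OHT 22 and 21. The counts with a library left out are given without the share over all tested genes. In each genotype 55 members had both clones with 4-OHT above both clones without it, and 0 members had both below. Over all tested genes both lay above for 36.9% in knockout clones and 41.7% in WT clones, and both below for 25.8% and 27.5%. With limma-voom on estimated reads 45 members were called in knockout clones and 50 in WT clones, all higher, against 32.3% and 34.2% of all tested genes called in either direction. In WT clones 21.4% of all tested genes were called higher by limma-voom. Of the tested members 36 were called in both genotypes, 5 in knockout clones alone, 5 in WT clones alone, and 15 in neither. The 36 hold both NDUFC2 and the readthrough gene NDUFC2-KCTD14, which share reads. The difference between the genotypes was called for none of the 61.

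**Figure D3:**
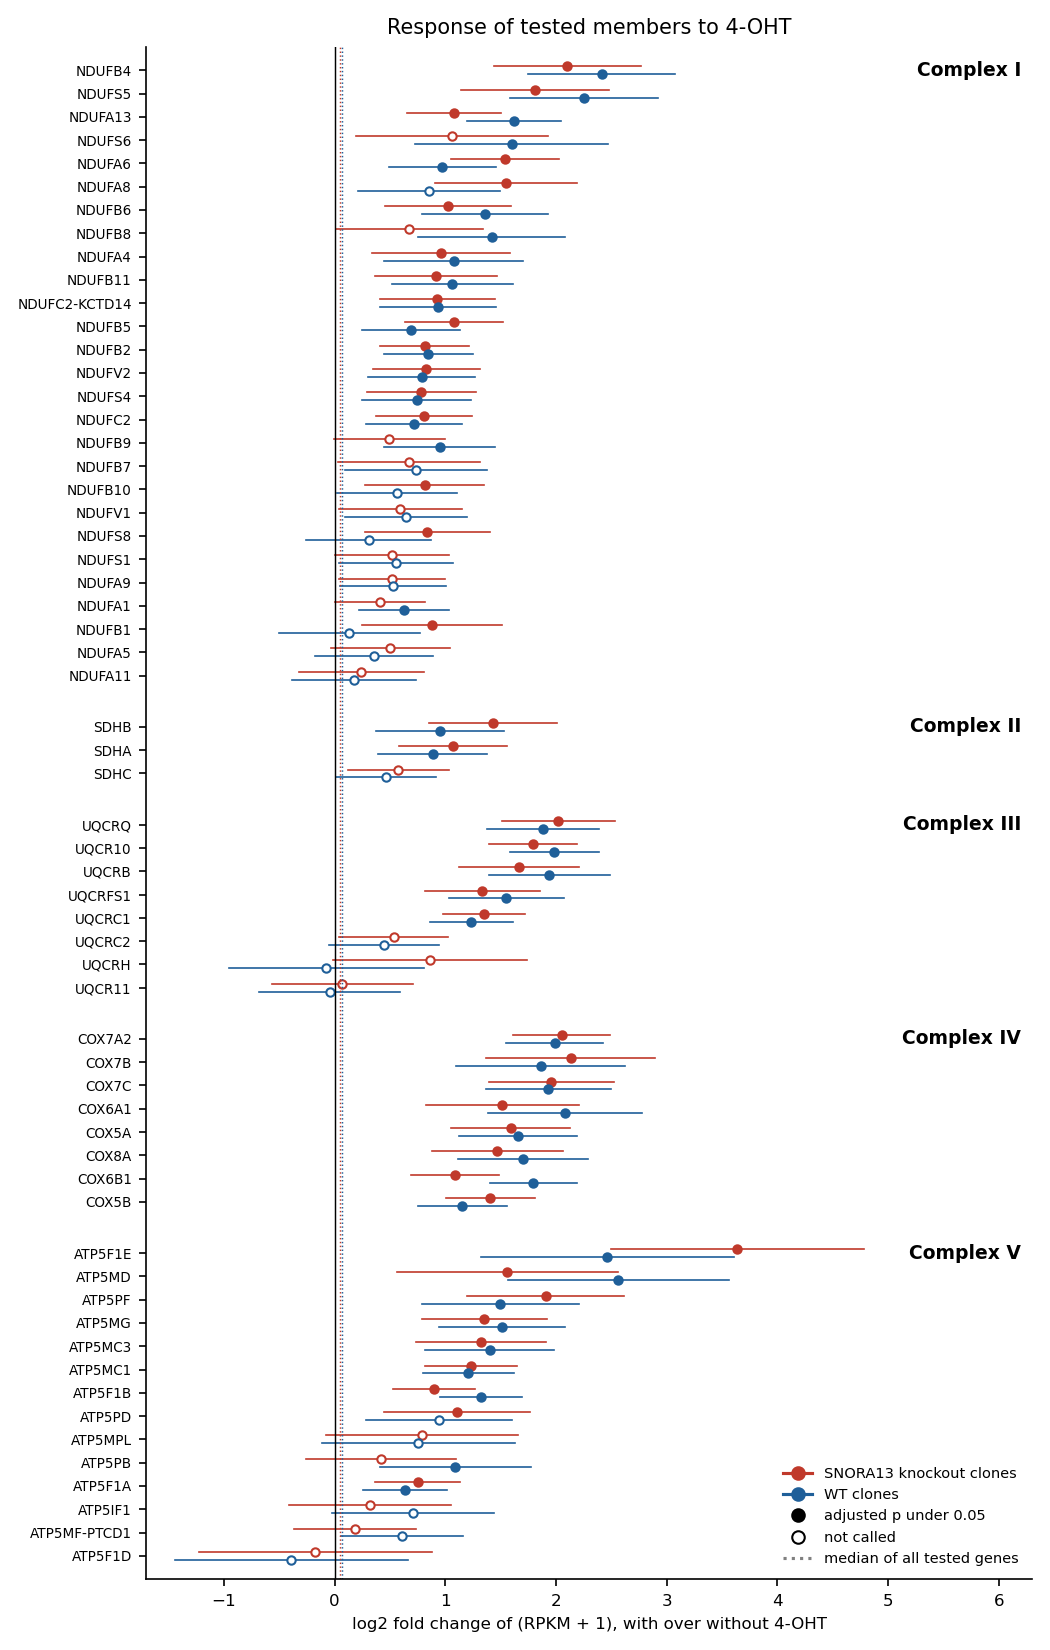
Log2 fold change of RPKM + 1 with over without 4-OHT (x axis) for 60 of the 61 tested members (y axis), grouped by complex, in SNORA13 knockout clones (red) and WT clones (blue). Lines are 95% intervals, filled points have an adjusted p under 0.05, and dotted lines are the medians of all tested genes (0.05 and 0.06). All 8 tested members of complex IV are filled in both genotypes, and in complexes I, III and V some points lie near 0.

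In complex I, the entry point for NADH, 17 of 28 tested members rose in each genotype. The median log2 fold change was 0.82 in knockout clones and 0.76 in WT clones. Both NDUFC2 and the readthrough gene NDUFC2-KCTD14, which share reads, are among the 17. In knockout and WT clones the count was 10 and 7 with the span trend removed and 6 and 9 with median-ratio scaling. With the clone as a block it was 11 and 10, and 11.4% of all tested genes were called higher in WT clones with that block. The largest rises of complex I in both genotypes were those of NDUFB4 and NDUFS5, accessory subunits of the membrane arm. NDUFB4 (ENSG00000065518.8, chr3:120596336-120602507) had 48.4 and 90.4 RPKM in knockout clones with 4-OHT, against 14.7 and 14.6 RPKM without it. NDUFB4 in WT clones had 84.6 and 71.2 RPKM with 4-OHT, against 13.6 and 13.9 RPKM without it. The groups did not overlap, and the log2 fold change was 2.10 ± 0.28 (SE) in knockout clones (adjusted p = 0.00231) and 2.41 ± 0.28 in WT clones (adjusted p = 0.00164). NDUFS5 had 20.2 and 31.1 RPKM in knockout clones with 4-OHT, against 4.93 and 8.29 RPKM without it, and rose by 1.81 ± 0.29 on the log2 scale (adjusted p = 0.00415). NDUFS5 in WT clones had 37.3 and 32.0 RPKM with 4-OHT, against 6.09 and 6.84 RPKM without it (log2 fold change 2.25 ± 0.29, adjusted p = 0.00216). NDUFA13, a membrane-arm subunit also known as GRIM-19, had log2 fold changes of 1.08 and 1.62 in knockout and WT clones (adjusted p = 0.00523 and 0.00134). NDUFA8 was called in knockout clones (1.55, adjusted p = 0.00626) and not in WT clones (0.85, adjusted p = 0.0652), a difference that did not pass the test between the genotypes (adjusted p = 0.856). By limma-voom NDUFA8 was called in WT clones as well. Of the 16 accessory subunits of the membrane arm 11 rose in each genotype, with a median log2 fold change of 0.85 in both, and with the span trend removed 6 rose in knockout and 4 in WT clones.

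Core subunits of the matrix arm of complex I carry electrons from NADH through iron-sulfur clusters towards the quinone. NDUFV1, which binds the flavin and NADH, had 33.4 and 23.5 RPKM in knockout clones with 4-OHT, against 20.9 and 15.9 RPKM without it. NDUFV1 in WT clones had 22.9 and 23.9 RPKM with 4-OHT, against 13.0 and 16.3 RPKM without it. These groups did not overlap, but the log2 fold changes of 0.59 ± 0.24 and 0.65 ± 0.24 did not pass the test (adjusted p = 0.103 and 0.0963). NDUFS1, an iron-sulfur subunit, had log2 fold changes of 0.52 and 0.56, neither called. By limma-voom NDUFS1 was called higher in both genotypes and NDUFV1 in WT clones. NDUFV1 was also called in WT clones with only the WT libraries in the fit. NDUFV2, another iron-sulfur subunit, was called in both genotypes (0.83 and 0.79, adjusted p = 0.0237 and 0.0331), and NDUFS8 in knockout clones (0.84, adjusted p = 0.0383, against 0.31 in WT clones, adjusted p = 0.414). With the clone as a block the adjusted p was 0.0594 for NDUFV2 in WT clones and 0.0765 for NDUFS8 in knockout clones. Leaving out single libraries gave NDUFV2 adjusted p-values of up to 0.118 in knockout clones and 0.167 in WT clones, and NDUFS8 up to 0.149 in knockout clones. With the span trend removed or with median-ratio scaling NDUFS8 was not called in knockout clones (adjusted p = 0.34 and 0.149) nor NDUFV2 in WT clones (0.0664 and 0.113), and median-ratio scaling also ended the call of NDUFV2 in knockout clones (0.102). These subunits were not tested against the accessory ones.

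In complex II, which oxidises succinate and also works in the tricarboxylic acid cycle, SDHA and SDHB rose in both genotypes. SDHB, the iron-sulfur subunit, had 9.90 and 6.32 RPKM in knockout clones with 4-OHT, against 1.97 and 2.70 RPKM without it. SDHB in WT clones had 5.59 and 5.46 RPKM with 4-OHT, against 2.60 and 2.14 RPKM without it. SDHB thus did not overlap between the conditions, with log2 fold changes of 1.43 ± 0.25 in knockout clones (adjusted p = 0.00583) and 0.96 ± 0.25 in WT clones (adjusted p = 0.0319). SDHA, the flavoprotein that binds succinate, had 5.95 and 4.73 RPKM in knockout clones with 4-OHT, against 1.66 and 2.40 RPKM without it, a log2 fold change of 1.07 ± 0.21 (adjusted p = 0.00943). SDHA in WT clones had 4.82 and 4.86 RPKM with 4-OHT, against 2.13 and 2.19 RPKM without it, a log2 fold change of 0.89 ± 0.21 (adjusted p = 0.0231). The WT calls of both did not hold with the clone as a block (adjusted p = 0.0604 for SDHA and 0.0699 for SDHB) or without any single WT library (0.0962 to 0.122 and 0.106 to 0.172), and the knockout call of SDHA did not hold without knockout clone 66 without 4-OHT (0.0694). With median-ratio scaling SDHA and SDHB were not called in WT clones (adjusted p = 0.0528 and 0.0665), and with the span trend removed SDHB was not (0.053). The membrane anchor SDHC had log2 fold changes of 0.58 and 0.47 that were not called (adjusted p = 0.0627 and 0.132). By limma-voom SDHC was called higher in both genotypes. The anchor SDHD had fewer than 5 estimated reads in every library and was not tested.

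In complex III, 5 of 8 tested members rose in each genotype, the same 5 in both, with medians of 1.34 in knockout clones and 1.39 in WT clones. UQCRQ, a small subunit that binds ubiquinone, had 226 and 221 RPKM in knockout clones with 4-OHT, against 48.8 and 60.2 RPKM without it. UQCRQ in WT clones had 209 and 189 RPKM with 4-OHT, against 44.6 and 63.1 RPKM without it. The groups lay far apart in both genotypes, with log2 fold changes of 2.02 ± 0.22 (adjusted p = 0.00104) and 1.88 ± 0.22 (adjusted p = 0.0015). UQCR10, also a small subunit, had 75.7 and 71.6 RPKM in knockout clones with 4-OHT, against 18.6 and 22.7 RPKM without it, and rose by 1.79 ± 0.17 on the log2 scale (adjusted p = 0.000675). UQCR10 in WT clones had 109 and 114 RPKM with 4-OHT, against 27.8 and 27.0 RPKM without it (log2 fold change 1.99 ± 0.17, adjusted p = 0.000559). UQCRB, UQCRC1 and UQCRFS1, the Rieske iron-sulfur protein, rose as well, UQCRFS1 by 1.34 and 1.55 in knockout and WT clones (adjusted p = 0.00496 and 0.00322) and UQCRC1 by 1.35 and 1.24 (adjusted p = 0.00133 and 0.00221).

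The second core protein of complex III did not pass the test. UQCRC2 had 10.3 and 7.39 RPKM in knockout clones with 4-OHT, against 6.12 and 5.37 RPKM without it, and in WT clones 7.92 and 7.23 RPKM with 4-OHT, against 5.71 and 4.90 RPKM without it. Its groups did not overlap, with log2 fold changes of 0.53 and 0.45 (adjusted p = 0.101 and 0.181), beside 1.35 and 1.24 for its partner UQCRC1. UQCR11, a small accessory subunit, had 5.68 and 7.37 RPKM in knockout clones with 4-OHT, against 5.21 and 7.19 RPKM without it. UQCR11 in WT clones had 7.65 and 12.7 RPKM with 4-OHT, against 10.2 and 10.2 RPKM without it. Its clones overlapped in both genotypes, and the log2 fold changes were 0.07 ± 0.27 and -0.04 ± 0.27 (adjusted p = 0.875 and 0.931). UQCRH, the hinge protein beside cytochrome c1, had log2 fold changes of 0.86 ± 0.38 and -0.07 ± 0.38 on 4.00 to 32.9 estimated reads a library, and it shares sequence with the retrocopy UQCRHL. With the clone as a block its change in knockout clones was called (adjusted p = 0.038).

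**Figure D4:**
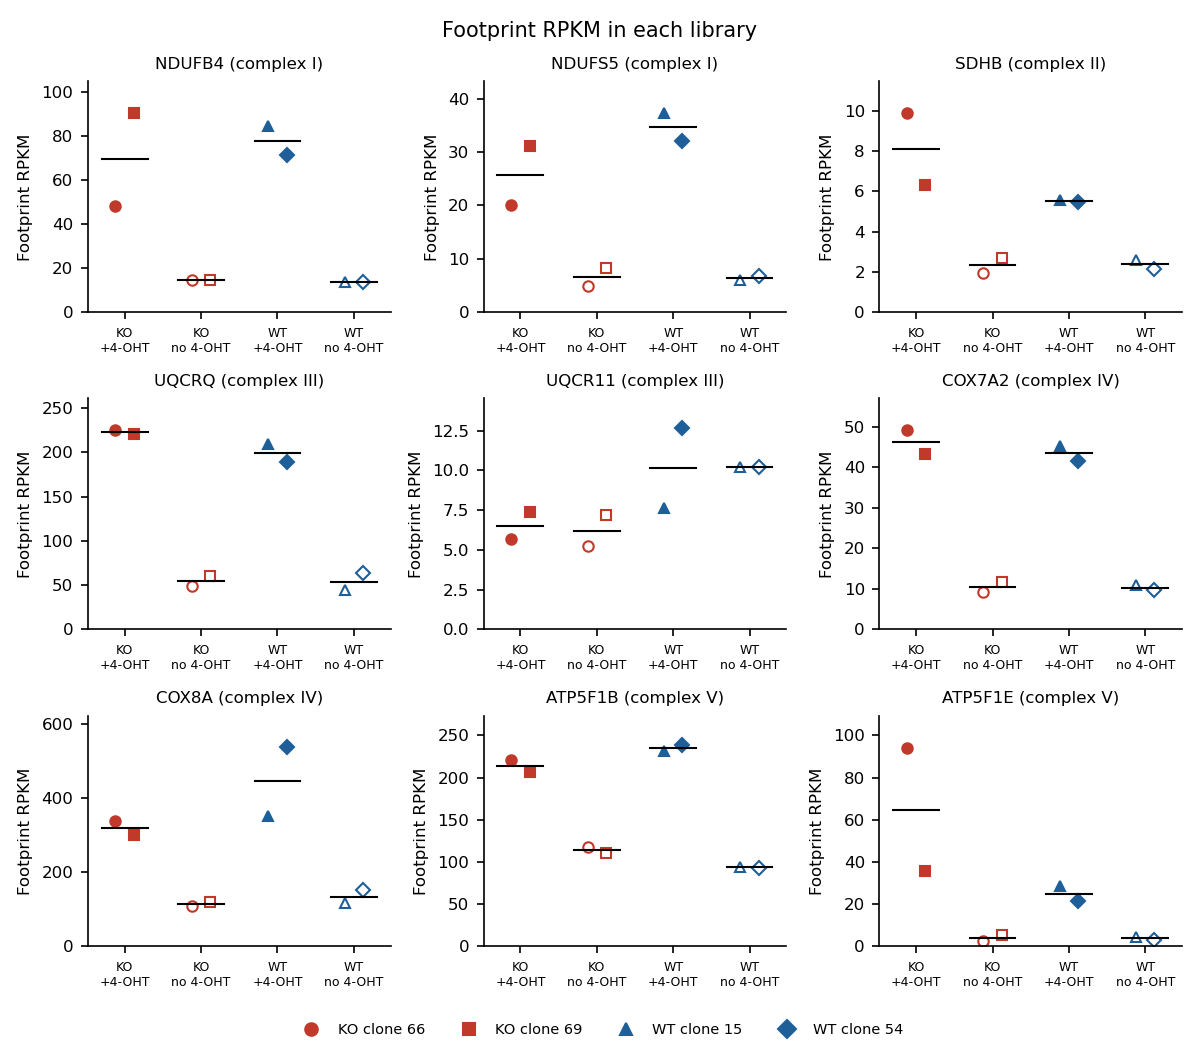
Footprint RPKM (y axis) of 9 members in each library, by group (x axis). Each point is 1 library, its shape the clone, filled with 4-OHT and open without, and the bar is the group mean. UQCRQ stands at 226 and 221 RPKM against 48.8 and 60.2 RPKM in knockout clones, while the points of UQCR11 overlap and ATP5F1E differs between the knockout clones with 4-OHT (93.9 and 35.6 RPKM).

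In complex IV, cytochrome c oxidase, all 8 tested members rose in both genotypes, with medians of 1.55 in knockout clones and 1.83 in WT clones. Its medians with the span trend removed were 0.99 in knockout clones and 1.34 in WT clones. COX7A2 had 49.3 and 43.4 RPKM in knockout clones with 4-OHT, against 9.29 and 11.6 RPKM without it. COX7A2 in WT clones had 45.4 and 41.6 RPKM with 4-OHT, against 10.8 and 9.60 RPKM without it. Its groups lay far apart, with log2 fold changes of 2.05 ± 0.19 (adjusted p = 0.000616) and 1.99 ± 0.19 (adjusted p = 0.00072). COX7C had 90.1 and 74.5 RPKM in knockout clones with 4-OHT, against 17.2 and 24.0 RPKM without it (log2 fold change 1.96 ± 0.24, adjusted p = 0.00161). COX7C in WT clones had 55.5 and 68.5 RPKM with 4-OHT, against 17.8 and 13.4 RPKM without it (log2 fold change 1.93 ± 0.24, adjusted p = 0.00203). Both are small subunits that cross the membrane beside the catalytic core, which is encoded by the mitochondrial genome.

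COX5B, a zinc-binding subunit on the matrix side, had 154 and 139.9 RPKM in knockout clones with 4-OHT, against 51.1 and 58.6 RPKM without it. COX5B in WT clones had 145 and 133 RPKM with 4-OHT, against 59.1 and 64.7 RPKM without it. The log2 fold changes of COX5B were 1.41 ± 0.17 (adjusted p = 0.00157) and 1.15 ± 0.17 (adjusted p = 0.0038), and those of COX5A, also on the matrix side, 1.59 and 1.66 (adjusted p = 0.00291 and 0.00284). COX8A had 338 and 301 RPKM in knockout clones with 4-OHT, against 110.1 and 119 RPKM without it, and in WT clones 352 and 539 RPKM with 4-OHT, against 116 and 153 RPKM without it. COX6A1, COX6B1 and COX7B were the other tested members of complex IV. Their log2 fold changes lay between 1.09 and 2.13 in knockout clones and between 1.80 and 2.08 in WT clones. Leaving out a library ended the call of COX6A1 in knockout clones (without clone 66 without 4-OHT, adjusted p = 0.0667) and of COX7B in WT clones (without clone 54 without 4-OHT, 0.0544). With the span trend removed the calls of COX5B ended in both genotypes (adjusted p = 0.0748 and 0.414 in knockout and WT clones), and those of COX6A1 and COX8A in knockout clones (0.142 and 0.0979). COX4I2, the hypoxia-linked isoform of COX4, had at most 8.95 estimated reads in a library and was not tested, like NDUFA4L2, a hypoxia-linked relative of NDUFA4.

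In complex V, 9 of 14 tested members rose in each genotype, with medians of 1.00 in knockout clones and 1.15 in WT clones. Removing the span trend left 4 called in knockout and 6 in WT clones, with medians of 0.55 and 0.68, and with median-ratio scaling 6 and 7. ATP5F1B, the catalytic beta subunit of the F1 head, had 221 and 207 RPKM in knockout clones with 4-OHT, against 117 and 111 RPKM without it. ATP5F1B in WT clones had 231 and 239 RPKM with 4-OHT, against 94.0 and 93.1 RPKM without it. Its log2 fold change was 0.90 ± 0.16 in knockout clones (adjusted p = 0.00618) and 1.32 ± 0.16 in WT clones (adjusted p = 0.00177), and the groups did not overlap. With the span trend removed its call ended in knockout clones (adjusted p = 0.0598). ATP5F1A, the alpha subunit of the same head, had 40.7 and 44.0 RPKM in knockout clones with 4-OHT, against 23.6 and 25.9 RPKM without it (log2 fold change 0.75 ± 0.16, adjusted p = 0.0141). ATP5F1A in WT clones had 41.8 and 39.7 RPKM with 4-OHT, against 26.8 and 25.1 RPKM without it (log2 fold change 0.63 ± 0.16, adjusted p = 0.031). The WT call of ATP5F1A did not hold with the clone as a block (adjusted p = 0.0623) or without any single WT library (0.102 to 0.165), nor its knockout call without clone 66 without 4-OHT (0.0835), and with median-ratio scaling it was called in neither genotype (0.103 and 0.163 in knockout and WT clones).

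ATP5F1E, the epsilon subunit of the central stalk, showed the largest fold change of complex V in knockout clones. It had 93.9 and 35.6 RPKM in knockout clones with 4-OHT, against 2.42 and 5.54 RPKM without it. ATP5F1E in WT clones had 28.8 and 21.3 RPKM with 4-OHT, against 4.52 and 2.95 RPKM without it. The knockout clones with 4-OHT differed from each other, on 122 and 239 estimated reads, and the log2 fold change was 3.64 ± 0.49 (adjusted p = 0.00224) in knockout clones and 2.46 ± 0.49 (adjusted p = 0.0115) in WT clones. In WT clones its call did not hold without clone 54 without 4-OHT (adjusted p = 0.0849) or without clone 15 or 54 with 4-OHT (0.0738 and 0.0525). ATP5MD, a small membrane subunit, had 11.2 and 20.4 RPKM in knockout clones with 4-OHT, against 4.91 and 4.08 RPKM without it (log2 fold change 1.56 ± 0.43, adjusted p = 0.0326). ATP5MD in WT clones had 30.1 and 13.7 RPKM with 4-OHT, against 3.55 and 1.87 RPKM without it (log2 fold change 2.56 ± 0.43, adjusted p = 0.00571), and its knockout call did not hold without clone 66 or 69 without 4-OHT (0.106 and 0.128) or clone 69 with it (0.0892), with median-ratio scaling (0.0654) or with the span trend removed (0.0979). ATP5MC1 and ATP5MC3, which encode the same c-ring protein, rose by 1.23 and 1.32 in knockout clones and by 1.21 and 1.40 in WT clones. With the span trend removed ATP5MC3 was called in WT clones alone (adjusted p = 0.0513 and 0.0456 in knockout and WT clones) and ATP5MC1 in neither (0.0674 and 0.107), and without single libraries ATP5MC3 reached 0.0581 in knockout clones and 0.0636 in WT clones.

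The delta subunit of the central stalk had no call. ATP5F1D had 10.2 and 17.5 RPKM in knockout clones with 4-OHT, against 18.0 and 12.9 RPKM without it. ATP5F1D in WT clones had 12.1 and 24.8 RPKM with 4-OHT, against 16.2 and 32.8 RPKM without it. Its clones overlapped in both genotypes, and its log2 fold changes of -0.17 ± 0.45 and -0.39 ± 0.45 were the only ones below 0 in both genotypes among the tested members, neither called (adjusted p = 0.798 and 0.588), and by limma-voom its change in knockout clones was 0.13. ATP5IF1, the inhibitor, had log2 fold changes of 0.32 ± 0.31 and 0.71 ± 0.31 (adjusted p = 0.479 and 0.154). Of the peripheral stalk ATP5PF rose in both genotypes, by 1.91 in knockout and 1.50 in WT clones, ATP5PD in knockout clones (1.10, against 0.94 with adjusted p = 0.0513 in WT clones) and ATP5PB in WT clones (1.09, against 0.42 with adjusted p = 0.312 in knockout clones). Without single libraries the adjusted p reached 0.0783 for ATP5PF in WT clones, 0.107 for ATP5PD in knockout clones and 0.172 for ATP5PB in WT clones. With median-ratio scaling ATP5PD and ATP5PB were not called (0.0819 in knockout and 0.0789 in WT clones). By limma-voom ATP5PD was called higher in WT clones as well.

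The members have shorter genes than the median of those tested, and shorter genes had higher fold changes with 4-OHT. The median span was 9242 bases over the tested members, between 5466 bases for complex IV and 48826 bases for complex II, against 34311 bases over all tested genes. Across all tested genes the log2 fold change with 4-OHT correlated with span at Spearman's rho of -0.22 in knockout clones and -0.28 in WT clones, as a description over genes that share libraries. With the trend of each library with span removed, 26 members were higher and 0 lower in each genotype, against 11.9% of all tested genes higher and 13.5% lower in knockout clones and 9.16% higher and 10.6% lower in WT clones. The member medians were then 0.60 and 0.68 in knockout and WT clones, and the calls in knockout and WT clones were 10 and 7 of 28 for complex I, 2 and 1 of 3 for complex II, 5 and 5 of 8 for complex III, 5 and 7 of 8 for complex IV, and 4 and 6 of 14 for complex V. Median-ratio scaling moved the median of all tested genes by less than 0.1, but the member median in WT clones from 0.96 to 0.74. With it 27 and 29 members were higher in knockout and WT clones and 0 lower. Of all tested genes 997 (11.5%) were then higher and 1346 (15.5%) lower in knockout clones, against 1502 and 932 in the scaling as deposited. In WT clones 824 genes (9.48%) were then higher and 986 (11.3%) lower, against 1196 and 710. Some members kept their call in both genotypes under 8 alternative settings and with each of the 8 libraries left out in turn. They were NDUFB4, NDUFS5, NDUFA13, UQCRQ, UQCR10, UQCRB, UQCRC1, UQCRFS1, COX5A, COX6B1, COX7A2, COX7C and ATP5MG, a set chosen after their values were seen. ATP5MG, the only member of complex V in this set, passed the read filter only through the libraries with 4-OHT.

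Other genes of the pathway were described from lists of known partners. CYCS, cytochrome c, which carries electrons between complexes III and IV, had 27.8 and 25.3 RPKM in knockout clones with 4-OHT, against 2.31 and 2.55 RPKM without it. CYCS in WT clones had 25.6 and 28.7 RPKM with 4-OHT, against 2.01 and 0.240 RPKM without it. Its value of 0.240 RPKM, in clone 54, rests on 1.25 estimated reads. CYCS rose by 3.01 ± 0.38 in knockout clones (adjusted p = 0.00168) and 3.86 ± 0.38 in WT clones (adjusted p = 0.000814). NDUFAB1, the acyl carrier protein in complex I, rose by 1.55 and 1.52 (adjusted p = 0.00375 and 0.00454). Of 13 subunits encoded by the mitochondrial genome 4 were listed (MT-CO2, MT-ATP6, MT-ATP8 and MT-ND4L), and all 4 were called higher in both genotypes. Only 2 of these 4 passed the read filter in the libraries without 4-OHT alone. MT-ATP6 and MT-ATP8 passed only through the libraries with 4-OHT, where they were high, so their calls carry that selection. MT-CO2, a catalytic subunit of complex IV, had 1746 and 1408 RPKM in knockout clones with 4-OHT, against 19.5 and 23.1 RPKM without it. MT-CO2 in WT clones had 665 and 320.2 RPKM with 4-OHT, against 12.2 and 1.85 RPKM without it. The value of 1.85 RPKM, in clone 54, rests on 0.994 estimated reads. Its log2 fold changes were 6.14 ± 0.66 in knockout clones (adjusted p = 0.00104) and 6.24 ± 0.66 in WT clones (adjusted p = 0.0011).

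Factors that build the complexes without staying in them were described in the same way. Assembly factors of complex I were higher in 6 of 13 cases in knockout clones and 4 of 13 in WT clones, those of complex II in 2 of 4 in each, those of complex III in 1 of 5 in each, those of complex IV in 8 of 20 and 5 of 20, and that of complex V in 0 of 1 in each, with none lower. Of all tested genes 17.3% were higher in knockout clones and 13.8% in WT clones. Some factors passed the read filter only through the libraries with 4-OHT, so these counts carry that selection. Without 4-OHT alone 12 of 13 passed for complex I and 2 of 4 for complex II. For complexes III, IV and V these were 3 of 5, 18 of 20 and 1 of 1. The share of subunits and of assembly factors was not tested against each other. COA6, which helps to load copper into complex IV, rose by 2.09 and 1.78, and LRPPRC, which stabilises mitochondrial mRNAs, had log2 fold changes of -0.79 and -0.63 that were not called. Of 11 tested enzymes of the tricarboxylic acid cycle 4 were higher in knockout clones and 5 in WT clones, against the same 17.3% and 13.8%, among them citrate synthase (CS, 1.02 and 0.98). Of 11 regulators of mitochondrial biogenesis 3 were higher in knockout clones and 2 in WT clones, beside the shares of 17.3% and 13.8% over all tested genes. Of these 11 regulators 9 passed the read filter without 4-OHT alone. The factors whose motifs were searched had log2 fold changes of 0.11 and -0.0025 (NRF1), 0.28 and 0.15 (GABPA), 0.40 and 0.37 (YY1) and 0.46 and 0.34 (ESRRA) in knockout and WT clones, none of them called.

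The last question was whether knockout of SNORA13 changed the respiratory chain genes, with or without 4-OHT. No member passed the test between the genotypes, and neither did any of all tested genes by limma-trend. With 4-OHT, 5 of 61 members had an unadjusted p under 0.05 (4.77% of 7658 tested genes), and without it 4 of 60 (8.41% of 8060). For the difference between the genotypes in the response to 4-OHT the count was 1 of 61 (5.19% of 8692). With limma-voom on the estimated reads 50 (0.653%), 60 (0.744%) and 4 (0.046%) of all tested genes were called in these comparisons, and 0 members in each. Clones of the genotypes did not overlap for 12 members higher and 17 lower in knockout clones with 4-OHT, against 19.1% and 18.6% of all tested genes, and for 11 higher and 11 lower without it, against 18.8% and 20.6%.

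COX6B1, a subunit on the intermembrane-space side of complex IV, had the smallest p without 4-OHT. It had 13.7 and 11.7 RPKM in knockout clones without 4-OHT, against 7.32 and 7.25 RPKM in WT clones without it. With 4-OHT it had 27.6 and 28.5 RPKM in knockout clones, against 29.0 and 26.6 RPKM in WT clones. The groups overlapped with 4-OHT and not without it, and the log2 fold change of knockout over WT clones without 4-OHT was 0.72 ± 0.17 (adjusted p = 0.529). The difference between its responses, knockout minus WT, was -0.71 ± 0.24 (adjusted p = 0.856). UQCR11 had 5.21 and 7.19 RPKM in knockout clones without 4-OHT, against 10.2 and 10.2 RPKM in WT clones, a log2 fold change of -0.65 ± 0.20 (adjusted p = 0.585).

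With 4-OHT the smallest p belonged to NDUFB1, an accessory subunit of complex I, with 15.4 and 10.9 RPKM in knockout clones, against 7.78 and 5.57 RPKM in WT clones (log2 fold change 0.88 ± 0.29, adjusted p = 0.821). UQCR10 had 75.7 and 71.6 RPKM in knockout clones, against 109 and 114 RPKM in WT clones (-0.59 ± 0.20, adjusted p = 0.821). UQCRH had 4.41 and 2.49 RPKM in knockout clones, against 1.50 and 0.519 RPKM in WT clones (1.16 ± 0.38, adjusted p = 0.821). Without the library of knockout clone 69 with 4-OHT, which leaves the shallowest library alone in its group, ATP5F1E and UQCRH were called higher in knockout clones (log2 fold changes of 1.88 and 1.47, adjusted p = 0.0150 and 0.0387). The genotype difference in RPKM + 1 had its 95% interval within 2-fold either way for 39 of 61 members with 4-OHT. Without 4-OHT this held for 50 of 60 members, and for the difference in response for 31 of 61. Adding 1 draws the differences of low values towards 0, so these counts do not bound the change in RPKM itself. The median half-width of these intervals was 0.64, 0.48 and 0.78 on the log2 scale.

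**Figure D5:**
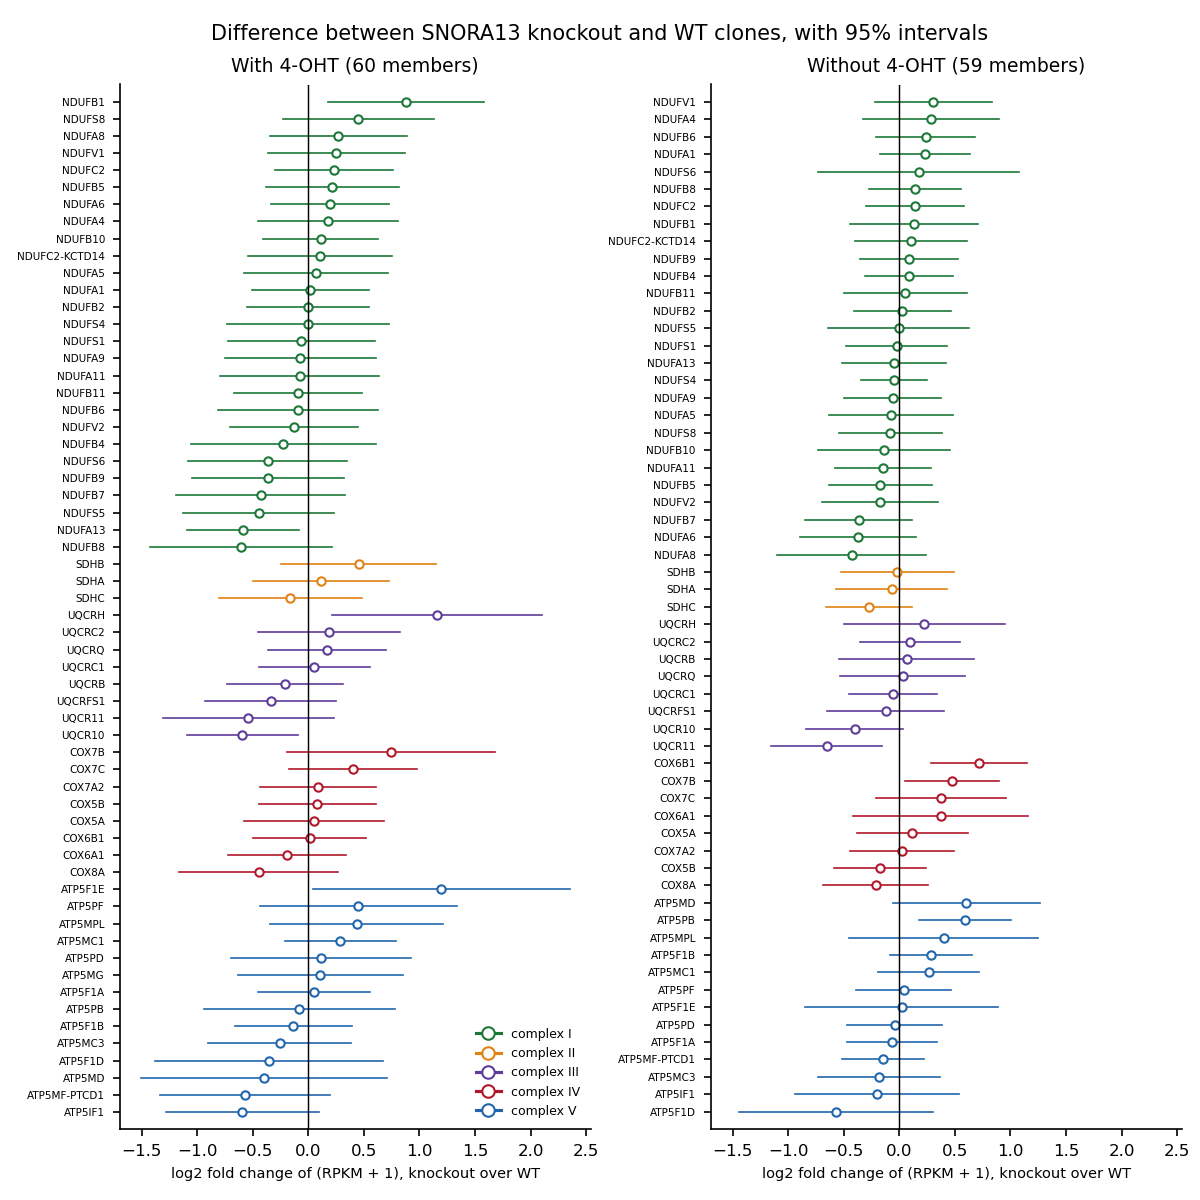
Log2 fold change of RPKM + 1 of SNORA13 knockout over WT clones (x axis) for the tested members but 1 (y axis), with 4-OHT (left, 60 members) and without it (right, 59 members). Lines are 95% intervals, colours are complexes, and open points mark that no member was called. The points scatter on both sides of 0 in every complex but complex II without 4-OHT, where all 3 lie below it.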

How the data were processed

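Ribosome footprints were measured in 8 libraries, 2 clones in each of 4 groups. The authors aligned reads with STAR to GRCh38, per the submitters' processing notes, and deposited RPKM values in a table for cells with 4-OHT (11079 genes) and another for cells without it (11546 genes). The tables name no unit; RPKM over the genomic span was inferred because the sums of value times span hardly differed between libraries. Spans came from RefSeq GRCh38.p14, and the 98 and 99 genes with no match stayed out of the tests. Low values times span were whole multiples of a step in 76.7% to 84.9% of cases (within 0.1), which gave whole reads only approximately, so reads and depth are estimates and cover counting error only.

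The main test was limma-trend (limma 3.58.1, R 4.3.3) on log2(RPKM + 1) with Benjamini-Hochberg adjustment over all tested genes, tested on simulated data beforehand. It was used in place of a count test, since the values are normalised. The 4-OHT comparisons and their difference used all 8 libraries over shared genes, and genotypes were compared on the 4 libraries of a table. With 2 libraries against 2 an exact permutation test cannot give a p below 1 in 3, so none was used. Each clone is 1 replicate, and nothing says that more than 1 culture stands behind it. Same-numbered libraries are the same clone, so the clone block is the paired fit; their deviations correlated at r = 0.00449 in knockout and 0.148 in WT clones over 8692 genes. Alternatives were a pseudocount of 0.1, no read filter, leaving out ribosomal protein genes and genes of the mitochondrial genome, median-ratio scaling, limma-voom on estimated reads, removal of the trend with span by lowess, another set of libraries in the fit, the clone block and each library left out. A planned comparison of levels per coding length was not made. Members and lists were chosen with earlier results of these data known. Named members are core subunits and isoforms, up to 3 called members with the largest change per complex and comparison, members opposite to their complex, and the 3 with the smallest p where none was called; values are given for part of them, and others named here were chosen after their values were seen. The values of 1 member are not reported here, though it enters the counts and medians. Tables were handled with Python 3.11.15, pandas 2.3.3 and scipy 1.17.1.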

Additional observations from a re-analysis of the deposited data

How the results depend on the processing

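In each comparison with 4-OHT 41 members were called higher, and no setting called a member lower. With the span trend removed 26 members were called in each genotype, and with median-ratio scaling 27 in knockout and 29 in WT clones. Across the other planned settings the count lay between 29 and 45 in knockout clones and between 31 and 50 in WT clones. Among them the clone as a replicate block gave 37 in knockout and 31 in WT clones. With that block 11.4% of all tested genes were called higher in WT clones. Leaving out single libraries gave 28 to 39 in knockout and 21 to 43 in WT clones. Fewer libraries enter these fits, and the lone library of a group is taken to vary like the other groups. Their counts are given without the share over all tested genes. Between genotypes with 4-OHT the count of members higher in knockout clones was 0 to 2 with a library left out. The share of member windows with a YY1 match was 8.33% before the start alone (3.29% over all genes of the footprint tables), against 21.7% over the whole window (6.55%), and that of ERR 11.7% (2.42%), against 18.3% (2.71%).

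Signs were followed gene by gene for the named members alone, and some of their uncalled fold changes changed sign, in no case with a call. Of all 61 tested members in WT clones, 58 fold changes were above 0 in the main fit. This count was 52 with the span trend removed and 55 with median-ratio scaling. For the 28 tested members of complex I in WT clones the counts were 28, 23 and 25. In WT clones NDUFB1 stood at -0.10 with median-ratio scaling and at -0.38 with the span trend removed, NDUFS8 at -0.18 with that trend removed, and UQCRH at 0.014 by limma-voom. In knockout clones UQCR11 stood at -0.23 with median-ratio scaling and -0.32 with the span trend removed, and ATP5F1D at 0.13 by limma-voom. With single libraries left out, the values in WT clones ran from -0.11 to 0.38 for NDUFB1, -0.0066 to 0.62 for NDUFS8, -0.43 to 0.28 for UQCRH, -0.37 to 0.29 for UQCR11 and -0.88 to 0.10 for ATP5F1D. In knockout clones they ran from -0.13 to 0.27 for UQCR11, -0.54 to 0.19 for ATP5F1D and -0.00014 to 0.84 for ATP5PB. The cause of these changes was not tested.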
